A study of Homo sapiens with 8 samples.

Results

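The genes described here encode the histones that cells make in bulk while they copy their DNA. They were chosen by name: every probe set annotated to 1 gene whose current symbol is H1-1 to H1-6, or begins with H2AC, H2BC, H3C or H4C and a number. This gave 58 genes of the 18417 named on the arrays, each with 1 probe set. They comprise 6 H1, 14 H2A, 17 H2B, 8 H3 and 13 H4 genes. H2BC19P is a pseudogene, and the probe sets of H4C14 and H4C15 hold the same value on all 8 arrays, so that 57 distinct measurements stand behind the 58 names. Another 14 histone symbols occur only on probe sets shared between genes and were not counted as members.

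The study profiled sorted tumour cells with Affymetrix Human Gene 1.0 ST arrays, to compare cells with and without ABCB5, a membrane transporter. Each of 4 established human lines, COLO741, SW620, HT29 and HCT116, gave 1 array of ABCB5-positive and 1 of ABCB5-negative cells, separated by an antibody to ABCB5, with no other treatment in either population. The sample labels describe COLO741 and HCT116 as colon carcinoma, HT29 as colon adenocarcinoma and SW620 as a lymph node metastasis of colon carcinoma. The series design text has SW480 in the place of SW620, and the sample labels were followed. Culture was in RPMI medium supplemented with fetal bovine serum and antibiotics for each line, and the Ambion WT kit amplified the total RNA. Each line is a single tumour, the antibody sees the protein and the arrays the transcript, and nothing says that the 2 arrays of a line come from separate cultures, so p-values measure only the spread between these arrays, which may be technical.

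Histone H2A, H2B, H3 and H4 form the core around which DNA is wound, and H1 binds where DNA enters and leaves it. Most of their genes lie in a large cluster that older names call HIST1, and others in the smaller HIST2 and HIST3 clusters. Their transcription is switched on in S phase through NPAT, and the transcripts end in a stem-loop bound by SLBP instead of a poly(A) tail. H1-6, H2AC1 and H2BC1 are known as testis forms and are members by name only. The copies are nearly identical in their coding parts, so a probe set may also catch transcripts of a neighbour. Levels are log2 values as deposited, and levels of different genes are not set against each other, because each probe set has its own brightness.

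Facts of the arrays that touch the results are these. A gene family used in the nose, the olfactory receptors, served as a scale for background: the 95th percentile of its 360 probe sets was 7.50. By mean level 51 of the 58 members lay at or above it, and H1-6, H2AC1, H2AC14, H2BC1, H2BC10, H4C7 and H4C9 lay below. The ABCB5 transcript measured 8.14 in ABCB5-positive and 9.42 in ABCB5-negative COLO741 cells, opposite to the labels, and 5.24 to 5.69 on the other 6 arrays, at background. Colon epithelial markers (13 genes) averaged 7.78 and 7.92 in COLO741, with 6 of them at background, against 10.41 to 12.48 in the other lines. Melanocyte markers (9 genes) averaged 11.74 and 12.01 in COLO741, with 0 at background, against 6.90 to 7.10 elsewhere, so the markers of COLO741 go against its label. Leukocyte markers (17 genes) averaged 8.07 in ABCB5-positive and 7.13 in ABCB5-negative SW620 cells, and 7.14 to 7.28 in the other lines. The part of these markers in the results was not tested.

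Upstream sequences are shown for 5 members whose values carry the findings below. H1-5 and H2AC8 were high in SW620 and HT29, H2BC14 was low in COLO741, H1-1 was high in COLO741, and H4C4 had the smallest p between the sorted populations. Each run holds the 250 bases before the RefSeq start of the gene on GRCh38.p14, 5′ to 3′ on the gene's strand. Capitals mark 4 short letter strings in either orientation. ATTTGCA is the core of the octamer bound by POU2F1, CCAAT is the box of that name, the TATA box was searched as TATAAA, and GGTCCG is the core of site II of H4 genes. None of the strings contains another, and no capital run in these sequences belongs to more than 1 of them. The positions are chr6:27867589-27867838, minus strand for H1-5, chr6:26216671-26216920, plus strand for H2AC8, chr6:27814772-27815021, plus strand for H2BC14, chr6:26017788-26018037, minus strand for H1-1 and chr6:26189113-26189362, minus strand for H4C4.
H1-5: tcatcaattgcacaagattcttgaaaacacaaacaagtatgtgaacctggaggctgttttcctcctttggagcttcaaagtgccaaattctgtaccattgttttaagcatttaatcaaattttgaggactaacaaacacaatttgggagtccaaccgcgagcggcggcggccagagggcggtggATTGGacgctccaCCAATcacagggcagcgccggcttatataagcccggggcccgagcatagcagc
H2AC8: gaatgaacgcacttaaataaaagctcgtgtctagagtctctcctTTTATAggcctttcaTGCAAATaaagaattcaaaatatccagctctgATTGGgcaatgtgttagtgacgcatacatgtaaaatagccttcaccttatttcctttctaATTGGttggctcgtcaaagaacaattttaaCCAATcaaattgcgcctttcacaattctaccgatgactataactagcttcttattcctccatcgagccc
H2BC14: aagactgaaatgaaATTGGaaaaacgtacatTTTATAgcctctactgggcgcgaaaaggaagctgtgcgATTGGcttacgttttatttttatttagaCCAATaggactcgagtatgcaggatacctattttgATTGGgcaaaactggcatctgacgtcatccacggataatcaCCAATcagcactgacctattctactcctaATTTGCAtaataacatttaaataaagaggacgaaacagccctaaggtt
H1-1: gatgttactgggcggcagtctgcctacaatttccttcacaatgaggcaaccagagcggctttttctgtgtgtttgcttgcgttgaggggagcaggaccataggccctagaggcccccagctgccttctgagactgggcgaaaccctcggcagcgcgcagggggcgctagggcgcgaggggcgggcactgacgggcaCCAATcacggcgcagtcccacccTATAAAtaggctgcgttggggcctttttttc
H4C4: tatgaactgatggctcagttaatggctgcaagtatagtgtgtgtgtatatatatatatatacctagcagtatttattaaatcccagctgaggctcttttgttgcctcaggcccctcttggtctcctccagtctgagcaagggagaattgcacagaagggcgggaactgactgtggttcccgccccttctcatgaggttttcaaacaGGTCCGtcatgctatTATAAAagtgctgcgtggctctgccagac

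Those strings were counted in the 300 bases around the start, 250 before and 50 after, for the 52 members that the RefSeq table holds. H2BC19P, H2AC12, H3C11, H3C12, H4C1 and H4C3 were not matched. ATTTGCA occurred in 13 of 16 H2B and 10 of 13 H2A promoters, in 1 of 6 H3 and in 0 of 6 H1 and 0 of 11 H4 promoters, against 4.23% of 27305 promoters of that length. GGTCCG occurred in 10 of 11 H4 promoters and in 1 H2A, 1 H2B and 1 H3 promoter, against 11.2% overall. H2A and H2B genes that lie head to head share the stretch between them, so a string there may count for both partners. The H2A and H2B promoters with GGTCCG, of H2AC20 and H2BC21, belong to such a pair. CCAAT occurred in each of the 6 H1, 13 H2A, 16 H2B and 6 H3 promoters matched and in 3 of 11 H4 promoters, against 35.7%. TATAAA occurred in 34 of the 52, against 3264 of the 27305. TTTGGCG, a string like the site of E2F factors, occurred in 1 of the 52, an H4 gene, against 1.92%. In H4C4, GGTCCG begins at base -44 and TATAAA at base -29 before the start, and in H2BC14 ATTTGCA begins at base -48. A match describes the letters of the reference and not a bound factor.

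Between the lines, the histone genes fell into a part that barely moved and a part that spanned many-fold differences. For 29 of the 58 members the line means spanned at least 1 log2 unit, against 31.5% of all 16910 genes tested, for 20 at least 2 units, against 12.9%, and for 14 at least 3 units, against 6.78%. The median span was 0.97 for members and 0.64 for all genes. In the test of any difference between the 4 lines, 42 of 58 members passed an adjusted p of 0.05, against 67.2% of all genes (limma, sorted population as covariate, 2 arrays per line). That share lies near the background, and with ordinary least squares 27 members and 50.2% of all genes passed. The highest line mean lay in SW620 for 35 members (60.3%, against 21.6% of all genes), in HCT116 for 14 (28.3% of all genes), in COLO741 for 5 (25%) and in HT29 for 4 (25.1%). The lowest line mean lay in COLO741 for 32 members (55.2%, against 30.3% of all genes), in HCT116 for 15 (17.4%), in HT29 for 11 (21.9%) and in SW620 for 0 (30.4%).

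**Figure D1:**
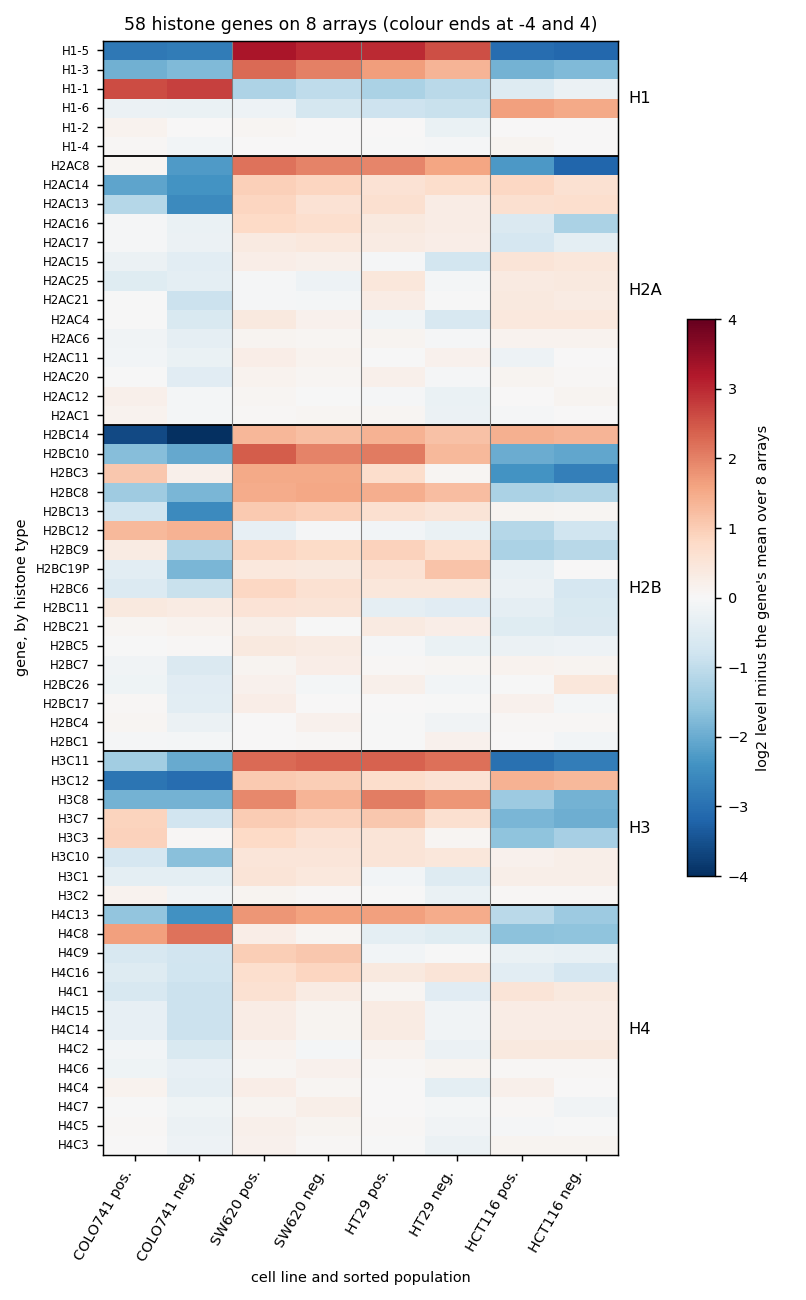
Log2 level of each of the 58 genes on each of the 8 arrays, minus the gene's own mean over the arrays, grouped by histone type and sorted within a type by the span between lines. H1-5, H3C11, H2BC10 and H2AC8 were high in both arrays of SW620 and HT29, and H1-4, H4C3 and H2BC4 hardly changed colour.

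Linker histones held the largest span and the smallest. H1-5, a main somatic H1, measured 13.13 in ABCB5-positive and 12.92 in ABCB5-negative SW620 cells and 12.86 and 12.44 in HT29, while it measured 7.01 and 7.08 in COLO741 and 6.83 and 6.74 in HCT116. Both arrays of COLO741 and of HCT116 lay under the background level of 7.50, and SW620 and HT29 did not overlap with them. Against the mean of the other 3 lines H1-5 differed by 4.20 ± 0.10 in SW620 (log2, SE; adjusted p = 2.6e-06, limma), by 3.70 ± 0.10 in HT29, by -3.77 ± 0.10 in COLO741 and by -4.12 ± 0.10 in HCT116. H1-3, another somatic H1, was likewise high in SW620 and HT29, with line means of 11.55 in SW620, 10.94 in HT29, 7.60 in HCT116 and 7.58 in COLO741. The 2 arrays of a line differed by up to 0.32 for H1-3. Its arrays measured 7.54 and 7.66 in HCT116 and 7.49 and 7.67 in COLO741, at or near the background level. Signal at that level limits what the closeness of these 2 lines shows.

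H1-1 ran the other way. It measured 10.94 in ABCB5-positive and 11.07 in ABCB5-negative COLO741 cells, against 7.09 and 7.30 in SW620, 7.06 and 7.25 in HT29 and 7.83 and 8.10 in HCT116. COLO741 stood above all 6 other arrays, by 3.57 ± 0.07 over the mean of the other lines (SE; adjusted p = 3.43e-07, limma), and the SW620 and HT29 values lay at background. H1-6, the testis form, measured 9.10 and 8.98 in HCT116 and 6.56 to 7.24 on the other 6 arrays, all of these under the background level. Its difference in HCT116 was 2.12 ± 0.11 (adjusted p = 3.55e-05). The difference of H1-6 was -1.15 in HT29, -0.35 in COLO741 and -0.62 in SW620, and in SW620 it was -0.40 without the ABCB5-negative SW620 array.

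H1-2 and H1-4, abundant somatic forms, had small spans between lines, 0.20 for H1-2 and 0.09 for H1-4. The line means of H1-2 lay between 12.05 and 12.25 and those of H1-4 between 14.72 and 14.80, close to the highest value of the table, 15.24. Neither passed the test of any difference between lines, at adjusted p = 0.302 for H1-2 and 0.719 for H1-4.

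**Figure D2:**
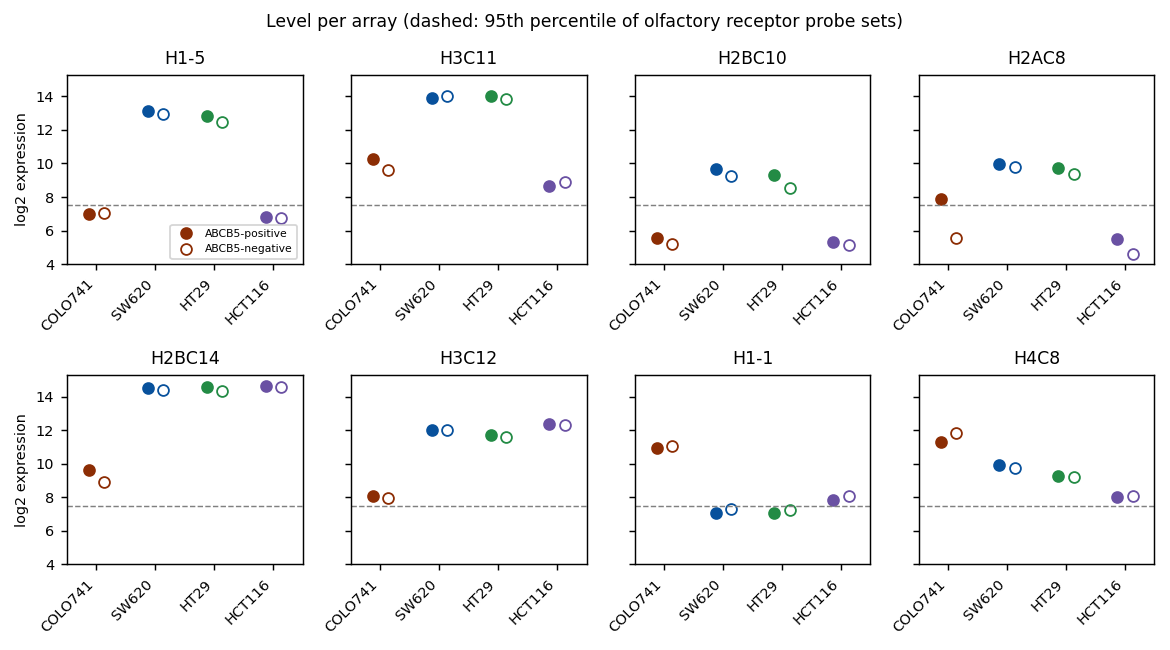
Log2 level on each array for 8 genes named in the text, by line, with filled points for ABCB5-positive and open points for ABCB5-negative cells; the dashed line is the background level of 7.50. H1-5, H3C11, H2BC10 and H2AC8 are high in SW620 and HT29, H2BC14 and H3C12 are low in COLO741, and H1-1 and H4C8 are highest in COLO741.

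Among the H2A genes, H2AC8 spanned 4.81 log2 units between line means. It measured 5.50 in ABCB5-positive and 4.62 in ABCB5-negative HCT116 cells, against 9.95 and 9.79 in SW620, 9.73 and 9.36 in HT29 and 7.88 and 5.53 in COLO741. HCT116 lay at background and differed from the other lines by -3.65 ± 0.39 (SE; adjusted p = 6.04e-04, limma), and the COLO741 arrays differed from each other by 2.35 units. H2AC13 and H2AC14 were instead lowest in COLO741, at line means of 9.93 and 4.22, against 12.24 to 12.49 and 7.13 to 7.38 in the other lines, the COLO741 arrays of H2AC13 differing by 1.41 and the H2AC14 line means all being at background. H2AC6, H2AC11, H2AC12 and H2AC20 each spanned under 0.4 units. Of the 14 H2A genes, 9 were lower in COLO741 at an adjusted p of 0.05 (26% of all genes) and 0 higher (23.7% of all genes).

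H2B genes showed both patterns. H2BC14 measured 9.60 in ABCB5-positive and 8.92 in ABCB5-negative COLO741 cells, against 14.54 and 14.41 in SW620, 14.59 and 14.36 in HT29 and 14.63 and 14.56 in HCT116. It was the most lowered member in COLO741, by -5.25 ± 0.13 (SE; 38.1-fold lower; adjusted p = 6.67e-07, limma), and the other 3 lines had means of 14.48 in SW620, 14.47 in HT29 and 14.60 in HCT116. H2BC10 measured 9.69 and 9.26 in SW620 and 9.34 and 8.56 in HT29, against 5.54 and 5.22 in COLO741 and 5.29 and 5.16 in HCT116, both at background. H2BC10 was 2.95 ± 0.13 higher in SW620 than in the other lines (adjusted p = 1.36e-05). H2BC3 was lowest in HCT116, at a line mean of 6.93 with both arrays under background, against 10.15 in COLO741, 11.01 in SW620 and 9.89 in HT29. H2BC12 was highest in COLO741, at 13.32 in ABCB5-positive and 13.42 in ABCB5-negative cells, against 10.89 to 11.97 on the other 6 arrays, a difference of 1.79 ± 0.11 (3.46-fold; adjusted p = 2.84e-05). H2BC1, H2BC4, H2BC5, H2BC7, H2BC17 and H2BC26 spanned under 0.6 units. Of these, H2BC1 lay under background on every array, at 5.86 to 6.12, and H2BC26 lay near it, at 7.27 to 8.16.

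H3 genes had a median span of 2.51 log2 units. H3C11 measured 8.66 in ABCB5-positive and 8.88 in ABCB5-negative HCT116 cells, against 13.92 and 13.99 in SW620, 14.02 and 13.84 in HT29 and 10.26 and 9.62 in COLO741. It was 14.3-fold lower in HCT116 than in the other lines (log2 difference -3.84 ± 0.16, SE; adjusted p = 1.64e-05, limma), and here all arrays lay above background. A probe set shared by H3C11 and H3C6, kept out of the members, did not show this pattern. It measured 6.08 to 6.84 over all arrays, under background, with 6.84 and 6.58 in SW620 and 6.25 and 6.08 in HCT116. H3C12 measured 8.08 and 7.95 in COLO741, against 12.39 and 12.31 in HCT116, 12.04 and 11.99 in SW620 and 11.70 and 11.58 in HT29, so that COLO741 was 15.9-fold lower (-3.99 ± 0.07; adjusted p = 2.68e-07). HCT116, low in H3C11, was the highest line in H3C12, with a line mean of 12.35 against 12.01 in SW620 and 11.64 in HT29. Its difference of 1.79 ± 0.07 is from the mean of the other 3 lines, which includes the low COLO741 level of 8.01. H3C8 measured 10.88 and 10.59 in HT29 and 10.77 and 10.21 in SW620, against 6.96 and 6.96 in COLO741 and 7.38 and 6.95 in HCT116, the last 4 at background. H3C2, by contrast, had line means between 13.66 and 13.87, with an adjusted p of 0.311 for any difference.

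The H4 genes nearly all encode the same small protein. Of the 13, 9 passed the test of any difference between lines (69.2%, against 67.2% of all genes), a share near the background. H4C3, H4C4 and H4C5 spanned 0.23, 0.36 and 0.25 log2 units between lines and did not pass. H4C8 was the only H4 gene called higher in COLO741, at 11.31 in ABCB5-positive and 11.85 in ABCB5-negative cells, against 9.94 and 9.75 in SW620, 9.29 and 9.20 in HT29 and 8.03 and 8.06 in HCT116, and the 4 lines did not overlap. It was 5.78-fold higher in COLO741 than in the other lines (2.53 ± 0.14, SE; adjusted p = 2.32e-05, limma). In HT29 H4C8 differed from the others by -0.58 ± 0.14 (adjusted p = 0.0177), and the adjusted p was 0.0666 without the ABCB5-positive and 0.175 without the ABCB5-negative HT29 array. H4C13 measured 11.66 and 11.51 in SW620 and 11.54 and 11.39 in HT29, against 8.33 and 7.47 in COLO741 and 8.82 and 8.46 in HCT116.

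The counts per line followed these values. At an adjusted p of 0.05 in limma, 6 of 58 members were higher in COLO741 than the other lines, where 23.7% of all genes were, and 32 were lower, where 26% were. For either direction the count was 38, against 49.7% of all genes. In SW620, 27 members were higher, against 22.1% of all genes, and 2 were lower, H1-1 and H1-6, against 22.9% (29 in either direction, against 45%). Those 2 had SW620 means under background, 7.19 and 6.99, and HT29 was lower still, at 7.15 and 6.59. Their comparison means hold 1 high line each, COLO741 for H1-1 (11.01) and HCT116 for H1-6 (9.04). In HT29, 21 were higher, against 19.7%, and 7 lower, against 23.2% (28 in either direction, against 42.9%). In HCT116, 13 were higher, against 21.7%, and 23 lower, against 20.5% (36 in either direction, against 42.2%). The 4 comparisons share arrays, and these counts are not independent of each other. The HT29 count of 28 members in either direction was 16 without its ABCB5-negative array (25.7% of all genes), and the HCT116 count of 36 was 23 without its ABCB5-negative array (22.2%). With ordinary least squares 25 members passed for COLO741 (38.3% of all genes) and 15 for HT29 (31%). Both arrays of SW620 lay above all other 6 for 17 members (14.1% of all genes) and below them for 0 (15.1%), and both arrays of COLO741 lay below all others for 18 (17.4%) and above for 3 (17.2%). For HCT116 the counts were 11 below (10.5%) and 7 above (16.4%), and for HT29 1 below (13.2%) and 2 above (14.9%).

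By type, the median difference of COLO741 from the other lines was -0.20 for H1, -0.37 for H2A, -0.42 for H2B, -1.03 for H3 and -0.48 for H4 genes, beside -0.04 for all genes. In SW620 the medians were 0.05 for H1, 0.30 for H2A, 0.54 for H2B, 1.11 for H3 and 0.23 for H4, beside -0.05 for all genes. In HCT116 they were -0.24 for H1, 0.14 for H2A, -0.29 for H2B, -0.95 for H3 and 0.07 for H4, beside 0.04. In HT29 they were -0.11, 0.14, 0.41, 0.74 and -0.07 for H1, H2A, H2B, H3 and H4 genes, beside 0.00. The medians hide opposite members: in HCT116 the H3 genes H3C11 and H3C12 lay on opposite sides.

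Several runs of members that follow each other along the cluster differed in the same direction. The order is that of RefSeq on chromosome 6 with only the members kept, so genes that are not members may lie between them. H2BC8, H2AC8 and H1-3 followed each other in it and were 2.03, 2.77 and 2.85 above the other lines in SW620. A second run, H3C7, H2BC9, H3C8 and H2BC10, was -2.51, -1.58, -2.23 and -2.71 from the other lines in HCT116. A further run, H1-5, H3C11 and H4C13, was -3.77, -2.28 and -2.66 in COLO741 and -4.12, -3.84 and -1.68 in HCT116. Yet the next member, H3C12, was -3.99 in COLO741 and 1.79 in HCT116. H2BC13, H2AC13, H3C10, H2AC14 and H2BC14 formed a run that was -1.56 to -5.25 from the other lines in COLO741 and 0.12 to 1.86 in HCT116. The HCT116 differences of H3C12 and of this run are from a mean that includes the low COLO741 level. For H2BC14 the line means were 14.60 in HCT116, 14.48 in SW620 and 14.47 in HT29. These runs were picked after their values were seen, and near-identical neighbours may share signal.

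**Figure D3:**
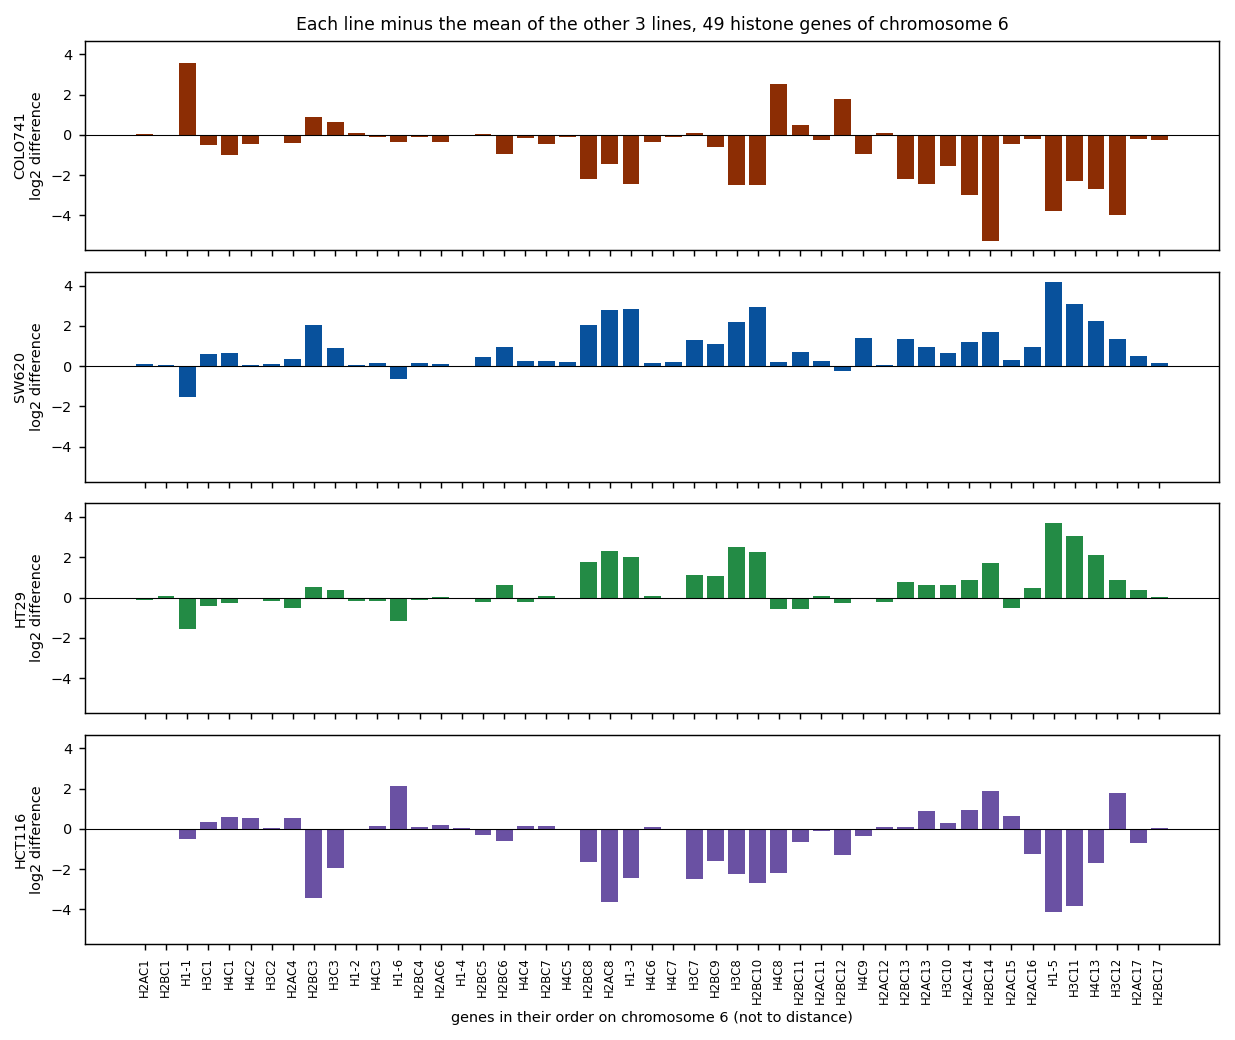
Difference of each line from the mean of the other 3 lines (log2), for the 49 members of chromosome 6 in their order along the chromosome; bars have no error, and spacing is not distance. Neighbouring bars such as H1-5, H3C11 and H4C13 point the same way within a line.

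H2A and H2B genes often lie head to head and share the stretch between them, and 9 such pairs had both partners among the members. In the pair H2AC8 and H2BC8, line means were 9.87 and 11.64 in SW620, 9.55 and 11.46 in HT29, 6.71 and 8.48 in COLO741 and 5.06 and 8.88 in HCT116, high and low in the same lines. In the pair H2AC13 and H2BC13, COLO741 was the lowest line for both, at 9.93 and 7.54. Its ABCB5-positive and ABCB5-negative arrays lay far apart, at 10.63 and 9.22 for H2AC13 and at 8.42 and 6.66 for H2BC13, the last under background. COLO741 was also the lowest line for H2AC14 and H2BC14, at 4.22 and 9.26. In the pair H2AC20 and H2BC21 the partners differed: COLO741 was lowest for H2AC20 (13.06, against 13.37 to 13.41), and HCT116 was lowest for H2BC21 (10.00, against 10.63 to 10.83). The other pairs, H2AC1 and H2BC1, H2AC6 and H2BC4, H2AC11 and H2BC11, H2AC17 and H2BC17, and H2AC25 and H2BC26, each spanned at most 1.02 log2 units between lines. Of these only H2AC25 and H2BC26 had the same lowest line, COLO741, though many of the spans were small. H2AC1 and H2BC1 lay under background on every array. H2AC11 was lowest in COLO741 (9.71), and H2BC11 was lowest in HCT116 (8.03, against 8.87 in COLO741).

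Between the sorted populations, most members measured slightly higher in ABCB5-positive than in ABCB5-negative cells, and 0 passed the test. With limma and the line as block, 0 of 58 members and 0% of the 16910 genes passed an adjusted p of 0.05, the lowest adjusted p was 0.898, and ordinary least squares also called 0. An unadjusted p under 0.05 was reached by 17 members (4.4% of all genes), 16 of them higher (2.62%) and 1, H1-1, lower (1.78%). The fitted difference was above 0 for 51 of 58 (87.9%, against 48% of all genes), and the median was 0.14, against -0.005 for all genes, with a median standard error of 0.09 for a member. The difference was above 0 in all 4 lines for 21 members (6.39% of all genes) and below 0 in all for 1 (6.98%). The count above 0 was 45 without COLO741, 52 without SW620, 52 without HT29 and 52 without HCT116, and 47 without both COLO741 and SW620. In the COLO741 pair, where the ABCB5 transcript runs opposite to the labels, the directions hold for the arrays as labelled, and without that pair the median was 0.12. A larger share of cells in S phase and more transcript per such cell cannot be told apart in these sorted bulk samples.

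H4C4 had the smallest p. In COLO741 it measured 11.66 in ABCB5-positive and 11.13 in ABCB5-negative cells, in SW620 11.77 and 11.59, in HT29 11.53 and 11.12, and in HCT116 11.71 and 11.53. The positive array was the higher one in every line, by 0.32 ± 0.17 (SD, n = 4 lines; 1.25-fold; limma adjusted p = 0.898). H2BC10 differed by 0.42 ± 0.28, with both COLO741 and both HCT116 arrays at background. H4C1 differed by 0.29 ± 0.17, H2BC17 by 0.25 ± 0.17, H4C13 by 0.38 ± 0.33 and H2BC6 by 0.25 ± 0.19, all of 1 sign because the choice of these genes asked for it. For H2BC6 the largest differences, 0.45 in HCT116 and 0.35 in COLO741, came from arrays under the background level. For H4C13 the largest, 0.86 in COLO741, had its negative array at 7.47, just under that level. H1-1 differed by -0.20 ± 0.06, with -0.13 for the COLO741 pair, -0.21 for SW620, -0.19 for HT29 and -0.27 for HCT116, and the SW620 and HT29 arrays lay under the background level. The largest mean, that of H2AC8 at 0.94 ± 0.98, included 2.35 in COLO741, where the negative array was at background, and 0.88 in HCT116, where both were, beside 0.17 in SW620 and 0.38 in HT29.

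**Figure D4:**
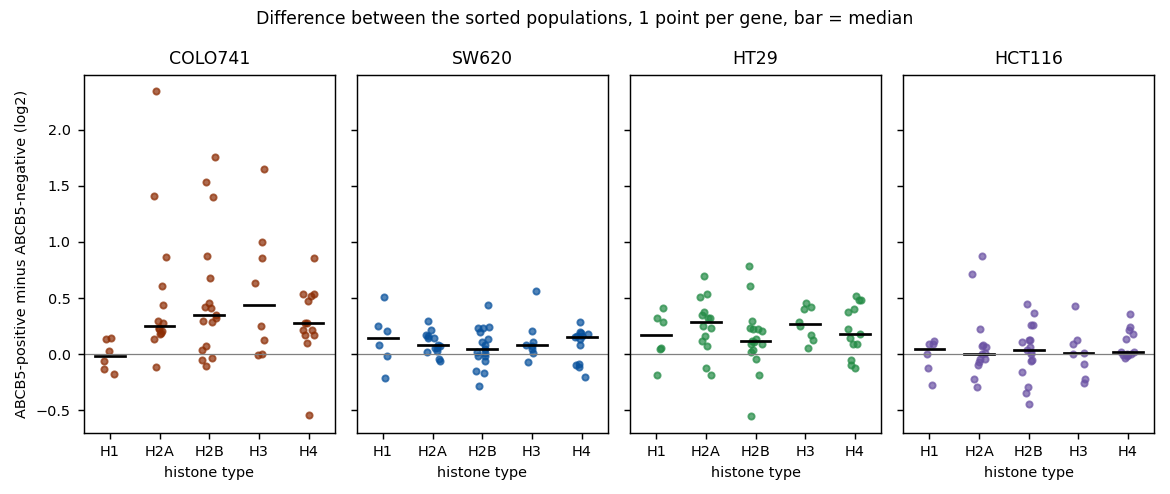
ABCB5-positive minus ABCB5-negative difference (log2) within each line, 1 point per gene and a bar at the median of each histone type; 1 pair of arrays per line, so no error is drawn. Points spread most in COLO741 and centre near 0 in HCT116.

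The size of the difference varied by line and type. Over the 58 members the COLO741 pair had a median of 0.28, the SW620 pair 0.08, the HT29 pair 0.22 and the HCT116 pair 0.02, and for all genes the medians lay between -0.02 and 0.02. The positive array was the higher one for 48 members in COLO741 (45.6% of all genes), 43 in SW620 (54%), 49 in HT29 (48.6%) and 35 in HCT116 (45.6%). Of the types, H3 had the highest median, 0.20 with 8 of 8 genes above 0, and H1 the lowest, 0.10 with 5 of 6. H2A genes had a median of 0.17 (12 of 14), H2B genes 0.13 (15 of 17) and H4 genes 0.15 (11 of 13). In COLO741 alone the H1 median was -0.01, beside 0.44 for H3 and 0.35 for H2B. The 6 members of the HIST2 cluster were all above 0, with a median of 0.25, of which H4C14 and H4C15 are 1 measurement. The 51 members above background had a median of 0.15 with 46 above 0.

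The lists of other proliferation genes were read in the same pairs. For 30 G2/M and mitosis genes the COLO741 pair had a median difference of 0.31, the SW620 pair 0.24, the HT29 pair 0.16 and the HCT116 pair 0.03. By the limma fit 28 of 30 were above 0, against 48% of all genes. An unadjusted p under 0.05 was reached by 14, against 4.4% of all genes. CDK1, the kinase of mitotic entry, measured 0.49 ± 0.28 (SD, n = 4) and UBE2C, an enzyme of mitotic exit, 0.47 ± 0.13. For 39 DNA replication and S phase genes the COLO741 pair had 0.20, the SW620 pair 0.07, the HT29 pair -0.01 and the HCT116 pair -0.04. Of these genes 29 of 39 were above 0 by the fit, against 48% of all genes. In HT29 the S phase median thus lay near 0 where the histone median was 0.22. Among these genes CDC45, of the replicative helicase, measured 0.19 ± 0.14 and TK1, thymidine kinase, 0.16 ± 0.10. None of these genes passed the adjusted threshold (0 of 30 and 0 of 39). The 15 tested leukocyte markers had a median difference of 0.55 in SW620, where the histone median was 0.08, and without SW620 the histone median was 0.16 over the other lines.

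The genes that make and process histone transcripts were split in direction, and 0 passed in any list. The counts below stand beside 48% of all genes with a difference above 0. Of 21 tested genes of histone transcription and end processing 8 were above 0 between the populations, with a median of -0.01. NPAT, the S phase activator of histone genes, differed by -0.01 ± 0.10 (SD, n = 4), SLBP, the stem-loop binding protein, by -0.003 ± 0.11 and LSM11, of the U7 particle that cuts histone transcripts, by -0.01 ± 0.11. CASP8AP2, of the same list, had the lower value in the positive array of all 4 lines, at a mean of -0.19 ± 0.08. So did NCBP2, of the cap-binding complex, at -0.12 ± 0.12, both at a limma adjusted p of 0.898. Of 15 genes of histone transcript translation and decay 12 were above 0, with PARN, a ribonuclease, at 0.10 ± 0.09 and LSM1, of a ring that starts transcript decay, at -0.19 ± 0.32. Of 24 chaperone and assembly genes 9 were above 0, with HJURP, the chaperone of the centromeric histone, at 0.41 ± 0.18 and ASF1B, an H3 and H4 chaperone, at 0.14 ± 0.12. Of 14 other histone genes tested, 6 were above 0, with H2AX, the variant marked at DNA breaks, at 0.20 ± 0.11 and H1-10 at 0.16 ± 0.18. This list also held H3-4, which the wider member rule adds, and H2BW1, at background on every array.

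Between the lines, SLBP had a line mean of 11.51 in COLO741, against 12.02 in SW620, 12.08 in HT29 and 12.32 for HCT116, a difference of -0.63 for COLO741 (limma adjusted p = 7.37e-04). CASP8AP2 was also lower in COLO741, with a difference of -0.72 (adjusted p = 2.73e-04). NPAT lay between 11.45 and 11.58 in all lines, with an adjusted p of 0.569 for any difference, and spanned less than the 6.24 units of H1-5. Of the transcription and processing list 11 of 21 genes were lower in COLO741 and 1 higher, and of the S phase list 21 of 39 were lower and 2 higher, where 26% of all genes were lower and 23.7% higher. In HCT116 17 of the 39 S phase genes were higher and 4 lower, where 21.7% of all genes were higher and 20.5% lower. The median span between lines was 0.57 for the transcription and processing list, 0.78 for the S phase list and 0.58 for the G2/M list.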

How the data were processed

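For 33297 probe sets on 8 arrays the authors deposited 1 value each, taken here as log2 because they ran between 2.99 and 15.24. They were made with Affymetrix Expression Console, per the submitters' processing notes, and the sources used here do not give its version, summarisation or normalization. Array medians lay between 8.03 and 8.10, and no further normalization was applied. Genes were named by the platform annotation, and current symbols were looked up by gene identifier in the GRCh38.p14 table (19429 of 19460 probe sets with 1 gene matched). For each of 18417 genes the probe set of highest mean was used, and 16910 genes with a mean at or above the median of the olfactory receptor probe sets were tested.

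Tests used limma 3.58.1 in R 4.3.3: a linear model per gene with line and sorted population, moderated variances (3 residual and 3.44 prior degrees of freedom), two-sided, with Benjamini-Hochberg adjustment over all 16910 genes at 0.05. The fit was tested on simulated data. Pairing of the 2 arrays rests on the cell line in the labels, and their deviations from the group means correlated at 0.932 to 0.964. The number of arrays limits the precision. Promoter sequences are RefSeq's on GRCh38.p14. H2AC25 and H2BC26, of the HIST3 cluster, matched the rule by current symbol, and H3-4 was added only as an alternative. Named genes were those of smallest p with 1 sign in all lines, and the largest differences past the threshold in each line. The members and lists were chosen with earlier results of these data known. Alternatives were the filter, quantile normalization, the rule for probe sets, the wider member rule, ordinary least squares, the block, the covariate and leaving out arrays.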

Additional observations from a re-analysis of the deposited data

Results flagged for a closer look

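Among 54 groups of 4 values examined for 1 value far from the others, 4 stood out. All 4 are COLO741 arrays of genes that were named for their low level in COLO741, so the rate of about 1 in 20 that chance gives does not apply to them and the result restates that choice. H2BC14 measured 9.60 in ABCB5-positive COLO741 cells and 8.92 in ABCB5-negative COLO741 cells, far below the other lines of the same population. H3C12 measured 8.08 in ABCB5-positive COLO741 cells and 7.95 in ABCB5-negative COLO741 cells, likewise far below the others. The median ABCB5-positive minus ABCB5-negative difference of the H1 genes was -0.014 in COLO741 and above 0 in the other 3 lines (0.14 in SW620, 0.17 in HT29 and 0.05 in HCT116), an opposite sign that was not tested with 1 pair of arrays per line.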

How the results depend on the processing

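Of the alternatives to the counts and the median of the members, 131 stayed within the limits set for them and 5 moved. With ordinary least squares per gene, 27 members passed for any difference between lines (50.2% of all genes), 25 for COLO741 (38.3%) and 15 for HT29 (31%), and the cause was not tested. Leaving out single arrays gave 16 to 32 members called for HT29, with 16 without its ABCB5-negative array, 23 to 39 for HCT116, with 23 without its ABCB5-negative array, 29 to 38 for COLO741 and 22 to 34 for SW620. For single named genes 457 alternatives kept direction and side of the threshold, 4 lost the call and 0 reversed: H1-6 in SW620 by least squares (-0.62, adjusted p = 0.0537, with the other alternatives under 0.05), and H4C8 in HT29 by least squares (adjusted p = 0.119) and without either HT29 array. The filter, the block, the covariate, least squares and the wider member rule cannot change the difference of a named gene with these arrays. No member had several probe sets, so the rule for probe sets could not either. A reversal was thus possible only under quantile normalization or when arrays were left out. Between the populations 0 members and 0 genes passed under each setting run. With no replicate block the count of members above 0 stayed 51 and the median 0.14, and the block as a random effect gave the same. Both outcomes were fixed in advance, because each line gave 1 array of each population, so they are no check of the result. The median ran between 0.12 without HT29 and 0.19 without HCT116. It was 0.11 without both COLO741 and SW620, an alternative chosen after the data were seen, as was counting H4C14 and H4C15 once, which gave 50 of 57 above 0. Signal at background limits the size of low values: 22 of the 58 members had at least 1 array under the background level, among them H1-1, H1-5, H1-6, H2AC8, H2AC14, H2BC3, H2BC10, H2BC13 and H3C8.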

Other observations

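Histone probe sets annotated to several genes were kept out of the members, and 15 of the 20 had a higher mean in ABCB5-positive than in ABCB5-negative arrays. Only 17 of the 20 differed in value from each other. The probe set of H2BC18 and H2BP1 with identifier 7919584 measured 11.08 in ABCB5-positive and 11.51 in ABCB5-negative COLO741 cells, against 7.88 and 7.90 in SW620, 7.64 and 7.52 in HT29 and 6.48 and 6.43 in HCT116. Another probe set of the same genes (7904465) did not show this pattern, at 13.62 to 13.79 over all arrays. One that H2BC18 shares with FCGR1BP (7919604) measured 7.41 to 7.62. One that also names H2BC21 (7919606) was again highest in COLO741, at 11.87 and 12.42. The one shared by H4C11 and H4C12 (8117598) measured 12.52 in ABCB5-positive and 11.81 in ABCB5-negative COLO741 cells, beside 12.78 and 12.70 in SW620, 12.79 and 12.50 in HT29 and 12.70 and 12.62 in HCT116. The one shared by H4C14 and H4C15 (7905067) measured 8.38 and 8.68 in HCT116, against 10.71 and 10.68 in SW620, while the probe sets named for H4C14 or H4C15 alone had their highest line mean, 13.49, in HCT116.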
